A study of Mus musculus with 3 samples.

Results

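The surface antibody panel is the set of 138 antibody features that was counted beside the transcripts of T cells sorted from mouse melanomas. Every row of the deposited antibody table was taken as a member, so the panel makes up 138 of the 14949 features in the antibody and gene tables together, the other 14811 being genes. Of the 138 antibodies, 3 are isotype controls, immunoglobulins with no target on the cells, and 135 are directed at surface proteins. At least 1 count was present for 128 antibodies and 10 had none in any of the 5564 cells. Among those without a count were IgD, CD68, CD163, CD204, Siglec-F, CCR8, Fas, TCR V-2 and TCR V-1.1/Cr4. Antibody features of this kind carry a short DNA label, so that a bound antibody is read out as a count in the droplet of the cell it sits on.

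T cells recognise antigen through a receptor that works with a co-receptor: CD4 binds MHC class II and CD8 binds MHC class I, and mature T cells usually carry one of them. The T cell receptor is held in the CD3 complex, and its chains are named after the V segment they use. CD45.1 and CD45.2 are forms of the leukocyte phosphatase CD45, encoded by different alleles of Ptprc, and they serve to tell transferred cells from host cells or from each other. An isotype control measures how many counts an antibody leaves on cells without binding a target.

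The cells came from the pooled tumors of 10 mice, which had been implanted with B16F10, a melanoma line of C57BL/6 mice, and resected on day 11. T cells had been purified and injected on day 1, either CD4+ cells bearing CD45.1 or CD8+ cells bearing CD45.2; their receptor repertoire was open and the mice are labelled untreated. From cells with CD45.1 a CD4+ and a CD4+CD8+ population were sorted, and from cells with CD45.2 a CD8+ and a CD8+CD4+ population, each of which got its own hashtag before about equal numbers went into 1 library. The congenic type of the host mice and the way in which the panel was applied to the cells are not stated in the sources used here.

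The deposited annotation gives each cell a hashtag number, a Cd8 or Cd4 identity and a class. The class is Tdp, Cd8 or Cd4; every Tdp cell holds UMIs of both Cd4 and Cd8a, so classes rest at least in part on co-receptor transcripts of the same cells. There were 1596 cells with number 1, 1735 with number 2, 1119 with number 3 and 1114 with number 4. The classes held 313 Cd8-identity Tdp cells, 2681 Cd8 cells, 93 Cd4-identity Tdp cells and 2477 Cd4 cells. The labels list the sorted populations in more than one order, and nothing ties a hashtag number to a population, so none was assigned. The labels give 4 hashtag barcodes, shown because hashtags told the sorted populations apart; the letters in capitals are the whole barcode as the labels write it, the fourth has 14 letters where the others have 15, and the antibody table has no row for any of them.
C0301: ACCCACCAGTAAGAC
C0302: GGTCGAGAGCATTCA
C0303: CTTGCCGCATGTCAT
C0304: AAAGCATTCTTCAG

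Numbers and classes are parts of 1 pool and not replicates. No test between them was therefore possible and no p-value is given. Sums and ratios carry exact 95% intervals (Poisson for a sum, conditional binomial for a ratio, Clopper-Pearson for a share), which cover counting error only and not the spread between animals, sorts or libraries. Intervals from summed counts treat the counts as independent of each other. They are too narrow for antibodies whose counts gather in the same cells, such as CD301b with 64 counts in 37 cells. An antibody is called higher or lower where the ratio of its counts per cell is at least 2-fold, the interval leaves out 1 and the groups hold at least 10 counts together.

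The panel was shallow: 4315 antibody counts were present over all cells, against 26763131 RNA UMIs, or 6202 RNA UMIs for each antibody count. A cell had 0.776 antibody counts on average. No antibody count was present in 2905 cells (52.2%), 1699 cells (30.5%) had 1, and the highest cell had 18. Of the 4182 nonzero values for an antibody in a cell, 97.5% were a count of 1, so levels can be read over groups of cells and not in single cells. A 0 in a cell does not show that the protein was absent from it. Cells with 5 or more antibody counts numbered 72 and held 506 counts (11.7% of all); 54 of them also carried UMIs of macrophage or monocyte genes.

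The isotype controls gave almost no counts. Mouse IgG2a had 3 counts, mouse IgG1 had 2 and mouse IgG2b had 2, each over 5564 cells. The other antibodies averaged 31.9 counts each, against 2.33 for an isotype control. At least 2 times the highest isotype control was reached by 97 of the 135 antibodies to surface proteins (71.9%). Another 29 had no more counts than that control. Because the control itself rests on 3 counts, the ratio to it had an interval above 1 for 70 antibodies, the lowest of which had 12 counts. All isotype controls are mouse immunoglobulins, and the host species of the other antibodies was not stated in the sources used here.

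**Figure D1:**
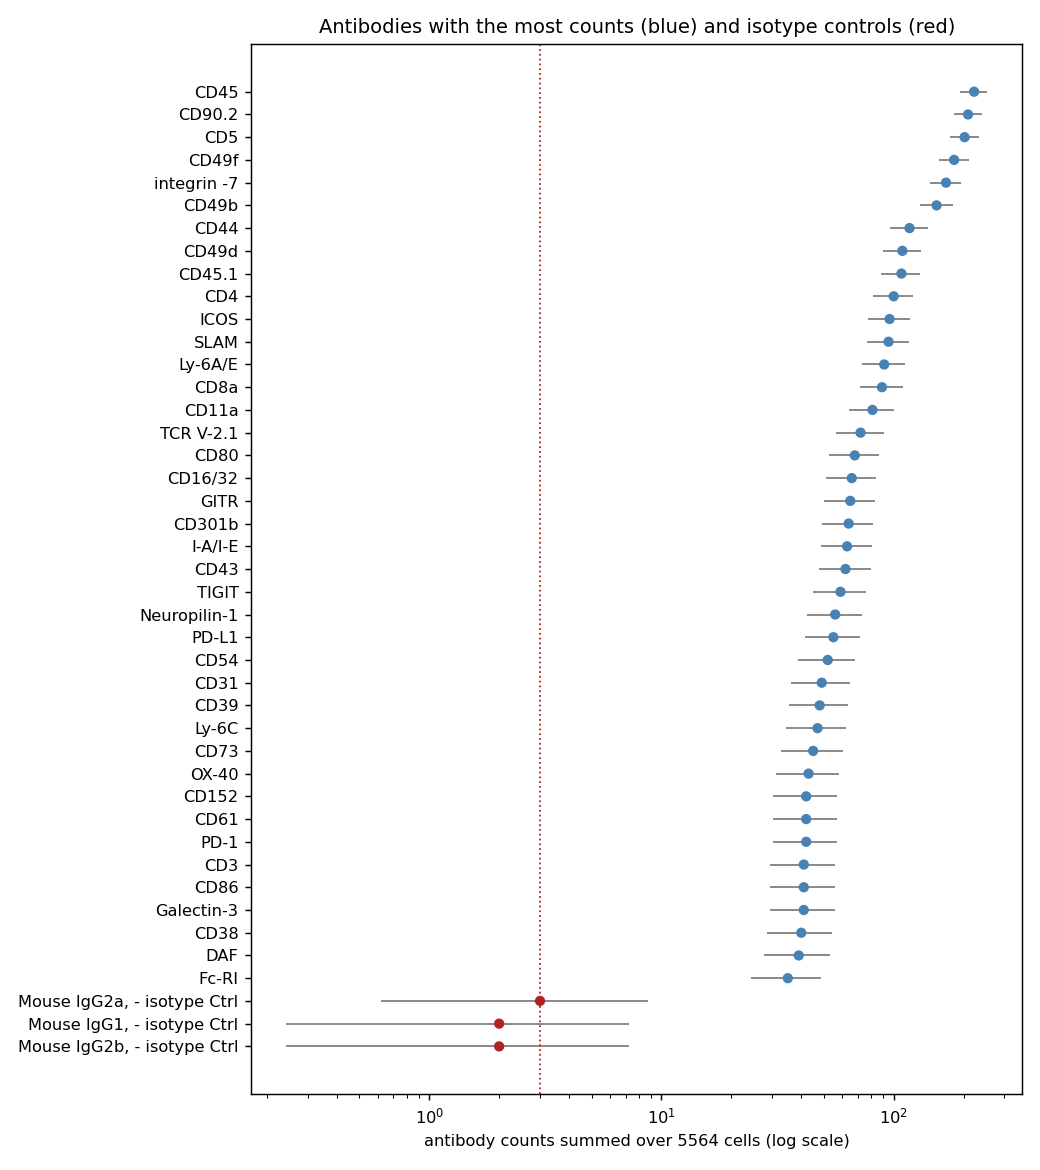
Antibody counts summed over all 5564 cells, on a log scale, for the antibodies with the most counts (blue) and the 3 isotype controls (red); lines are exact 95% Poisson intervals and the dotted line marks the highest isotype control. CD45 had 222 counts and CD90.2 209, against 3, 2 and 2 for the isotype controls.

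Antibodies to proteins of all T cells and leukocytes led the panel. CD45, the leukocyte phosphatase, had 222 counts (194 to 253), CD90.2, the Thy1 glycoprotein of T cells, had 209, and CD5, a receptor that dampens T cell receptor signals, had 202. They were followed by adhesion receptors, with 182 counts for the laminin-binding integrin chain CD49f, 168 for integrin beta 7, 153 for the collagen-binding chain CD49b and 109 for CD49d, the chain that pairs with the beta chains of VLA-4 and of the gut-homing integrin. The deposited names lack their Greek letters, and the row called integrin beta 7 here was matched to Itgb7. An antibody's count also depends on how it binds and is labelled, so the order of antibodies is not an order of protein amounts.

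Of the lineage antibodies, CD45.1 had 108 counts (88.6 to 130), CD4 had 100 (81.4 to 122), CD8a had 89 (71.5 to 110) and CD45.2 had 34 (23.5 to 47.5). Each was above the isotype controls, and CD45.2 was the sparsest of them. CD3, the signalling complex of the T cell receptor, had 41 counts.

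Grouped by role, 6 of 6 antibodies to T cell proteins and 5 of 5 to co-receptors and congenic markers reached 2 times the highest isotype control. So did 18 of 22 to activation and regulatory proteins, 8 of 9 to inhibitory receptors, 17 of 18 to residency and homing proteins and 8 of 11 to T cell receptor chains. Inhibitory receptors were present at modest counts, with 59 for TIGIT, 42 for PD-1, 42 for CD152 (CTLA-4), 23 for LAG-3 and 5 for Tim-3. Activation markers reached 117 for CD44, the hyaluronan receptor of antigen-experienced cells, 96 for the co-stimulator ICOS and 19 for the early marker CD69. Antibodies to cells that the sort was not aimed at were lower. The 8 B cell antibodies summed to 27 counts with a median of 1.5 and 0 counts for IgD. NK-1.1 had 1 count and NKp46 had 5, both receptors of NK cells, and KLRG1, the other antibody of the NK group, had 10. The isotype rule of 2 times was reached by 3 of the 8 B cell antibodies and 1 of the 3 NK antibodies. The 37 antibodies to myeloid and dendritic proteins had a median of 8 counts, against 12 for the whole panel, yet 23 of them passed 2 times the isotype, led by 68 for the co-stimulatory ligand CD80, 66 for the Fc receptors CD16/32, 64 for the lectin CD301b and 63 for MHC class II (I-A/I-E).

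Most cells had transcripts of T cell genes: 97.1% had at least 2 UMIs of a T cell list (Cd3d, Cd3e, Cd3g, Trac, Cd2, Cd5, Thy1, Cd28). At least 2 UMIs of a macrophage or monocyte list (Lyz2, C1qa, C1qb, C1qc, Apoe, Adgre1, Csf1r, Fcgr1, Cd68, Itgam) were present in 372 cells, and 253 of these (68.0%) also passed the T cell list. These macrophage-marked cells made up 8.83%, 5.42%, 4.74% and 7.54% of the cells of numbers 1, 2, 3 and 4. At least 2 UMIs of an NK cell list (Ncr1, Klrb1c, Klra4, Klra8, Eomes, Gzma) were present in 557 cells (10.0%). A dendritic cell list, named further below, reached this in 416 cells (7.48%). Median RNA UMIs per cell lay between 3689 and 4290 over the numbers.

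Congenic and co-receptor antibodies differed between the hashtag numbers. For CD45.1, number 1 had 45 counts, number 2 had 35, number 3 had 17 and number 4 had 11, which is 28.2, 20.2, 15.2 and 9.87 per 1000 cells. Its level was lower in number 4 than in the other numbers together, 2.21-fold (1.18 to 4.57). CD45.2 had 10, 11, 3 and 10 counts in numbers 1 to 4, or 6.27, 6.34, 2.68 and 8.98 per 1000 cells, and no number was called. Without macrophage-marked cells, which held most of its counts, 1, 6, 3 and 4 remained, and the log2 ratio of number 1 to the other numbers was -2.34, against 0.05 with them. With all cells, the CD45.2 sum was below the CD45.1 sum in each number. Both antibodies had counts in every number, with and without these cells. Over all cells the isotype controls together gave 1, 2, 1 and 3 counts in numbers 1 to 4. The few CD45.2 counts left without macrophage-marked cells therefore do not show that the protein was present in each number.

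CD4 antibody had 41, 24, 12 and 23 counts in numbers 1, 2, 3 and 4, or 25.7, 13.8, 10.7 and 20.6 per 1000 cells. CD8a antibody had 8, 28, 29 and 24 counts, or 5.01, 16.1, 25.9 and 21.5 per 1000 cells. Number 1 was thus high for CD4 and low for CD8a, and its CD8a level was 4.07-fold lower than in the other numbers together (1.97 to 9.75). Number 3 was the reverse in order, highest for CD8a and lowest for CD4. Of these differences only the lower CD8a of number 1 was called, and CD4 was called in no number. The numbers also differed in makeup, since 27.2% of the cells of number 1 had a Cd8 identity, against 54.3% in number 2, 81.1% in number 3 and 63.7% in number 4.

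Within an identity the difference was smaller. Among Cd8-identity cells CD8a gave 16.1, 29.7, 30.8 and 32.4 counts per 1000 cells in numbers 1, 2, 3 and 4. The ratio of number 1 to the other numbers was there 0.52 (0.20 to 1.13) and not called. Among Cd4-identity cells CD4 gave 34.4, 27.7, 47.4 and 47.0 per 1000 cells, so number 3, lowest over all its cells, was not low among these. The split of each number by identity was added after the data had been seen.

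**Figure D2:**
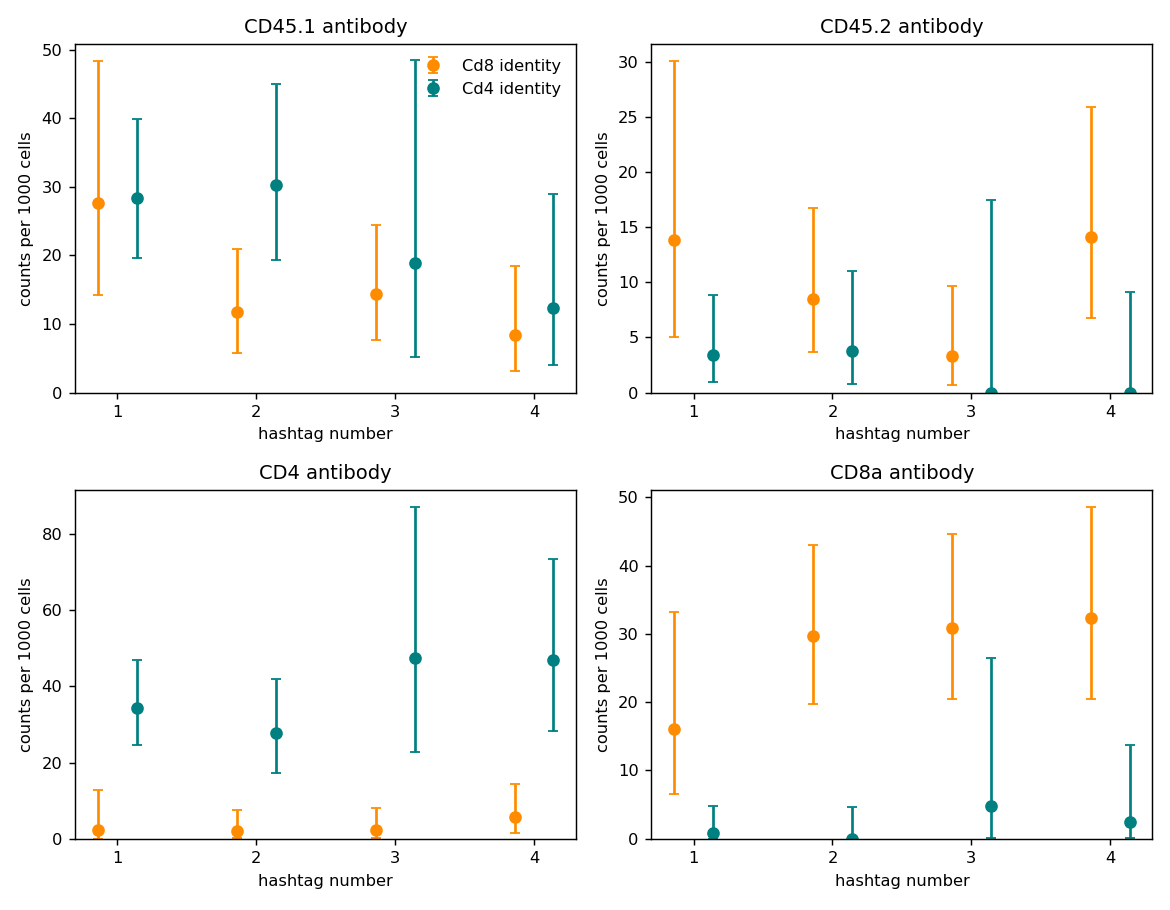
Counts per 1000 cells of the CD45.1, CD45.2, CD4 and CD8a antibodies by hashtag number, for cells of Cd8 identity (orange, left) and Cd4 identity (green, right), with exact 95% Poisson intervals. CD8a lay between 16.1 and 32.4 in Cd8-identity cells and at 4.74 or below in Cd4-identity cells, and CD4 did the reverse; CD45.1 in number 2 was at 11.7 in Cd8-identity and 30.3 in Cd4-identity cells.

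Between identities the co-receptor antibodies separated almost fully. CD8a had 86 counts in the 2994 Cd8-identity cells and 3 in the 2570 Cd4-identity cells, a ratio of 24.6 (8.14 to 122). CD4 had 9 counts in Cd8-identity cells and 91 in Cd4-identity cells, 11.8-fold lower (5.94 to 26.6). In each of the 4 numbers both antibodies were on the side of the identity they name. A count of CD4 or CD8a was present in 184 cells, 3.31% of all, and 172 of these (93.5%) carried the antibody that their identity names. No cell had both, among 97 cells with a CD4 count and 87 with a CD8a count. With counts this sparse few such cells would be met in any case, and no expected number was computed.

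Congenic antibodies followed identity less closely. CD45.2 had 27 counts in Cd8-identity cells and 7 in Cd4-identity cells, a ratio of 3.31 (1.41 to 9.01), which passed the rule. CD45.1 had 42 counts in Cd8-identity cells and 66 in Cd4-identity cells, 1.83-fold lower (1.22 to 2.76), under the 2-fold limit. By number this ratio passed the rule in number 2, with 11 counts in Cd8-identity and 24 in Cd4-identity cells (2.59-fold lower, 1.22 to 5.86, and 2.42-fold without macrophage-marked cells, 1.1 to 5.72), and not in numbers 1, 3 and 4. Of the 34 CD45.2 counts, 20 were in the 372 macrophage-marked cells. Without those cells CD45.2 had 11 counts in Cd8-identity and 3 in Cd4-identity cells and the interval of the ratio spanned 1 (3.36, 0.888 to 18.8), while CD45.1 had 38 and 61 and remained 1.75-fold lower. Counts of CD45.1 and CD45.2 met in 3 cells, 2 of them macrophage-marked, where 107 and 33 cells had a count of either. CD45.1 met CD4 in 3 cells and CD8a in 0, numbers too small to set the 2 pairs apart.

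With the lineage antibodies included, 82 antibodies had enough counts for a comparison of each number with the other numbers. The cells of number 1 had more antibody counts in general, 923 per 1000 cells, against 702, 689 and 766 in numbers 2, 3 and 4, and macrophage-marked cells were also most frequent there; their part in these ratios is given by the counts without them. Called higher in number 1 were 7 antibodies (8.54%) and called lower were 2 (2.44%). GITR, a co-stimulatory receptor abundant on regulatory T cells, had 34 counts in number 1 and 31 in the others (2.73-fold). OX-40, a co-stimulatory receptor of the same family, had 20 and 23, and PD-L1, the ligand of PD-1, had 26 and 29. The other higher antibodies were IL-4R, TCR V-2.1, CD16/32 and CD61. Beside CD8a the chemokine receptor XCR1 was lower, with 0 counts in number 1 and 11 in the others. Its fold was 1.48 with a floor of 3 counts in place of the 0, which is not a lower limit.

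In number 2 no antibody was called higher (0.0%) and 3 were called lower (3.66%). CD16/32 had 12 counts in number 2 and 54 in the others, I-A/I-E had 10 and 53, and the collagen receptor chain CD49a had 4 and 27. In number 3, which had the largest share of Cd8-identity cells, 2 antibodies were higher (2.44%) and 9 were lower (11.0%). The co-stimulator CD27 had 15 counts in number 3 and 16 in the others (3.72-fold), and XCR1 had 6 and 5 (4.77-fold). CD5 had 22 and 180, the adhesion integrin CD11a had 7 and 74, CD301b had 3 and 61, and Neuropilin-1, a semaphorin receptor also found on regulatory T cells, had 2 and 54 (6.80-fold lower, 1.79 to 57.6). In number 4, 2 antibodies were higher (2.44%), both to proteins of myeloid cells, and CD45.1 was the 1 that was lower (1.22%). CD11b had 10 counts in number 4 and 14 in the others (2.85-fold, 1.13 to 6.91), and Fc-RI had 13 and 22.

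Without macrophage-marked cells all of these antibodies lay on the same side, and 5 of 9, 1 of 3, 4 of 11 and 0 of 3 calls of numbers 1, 2, 3 and 4 were kept. Within Cd8 identity 2 of 9, 1 of 3, 5 of 11 and 1 of 3 calls were kept, and within Cd4 identity 1 of 9, 1 of 3, 1 of 11 and 0 of 3. Other antibodies were called only in these subsets, 7, 1, 3 and 4 within Cd8 identity, 1, 1, 0 and 0 within Cd4 identity and 1, 0, 1 and 1 without macrophage-marked cells. Calls that were not kept could have ratios of about the same size: without macrophage-marked cells CD45.1 in number 4 was at 0.505 of the level in the others (0.243 to 0.949) and CD5 in number 3 at 0.504 (0.308 to 0.788), both with intervals that left out 1.

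Cd8-class cells and Cd4-class cells differed in 19 of 76 measured antibodies, 10 higher (13.2%) and 9 lower (11.8%) in the Cd8 class. CD8a had 74 counts in the Cd8 class and 3 in the Cd4 class, 22.8-fold (7.50 to 113). Ly-6C, a protein of memory CD8 T cells and of monocytes, had 31 and 12 (2.39-fold). TCR V-5.1, 5.2 had 13 counts in the Cd8 class and 0 in the Cd4 class (4-fold with the floor of 3 counts in place of the 0). Other antibodies that were higher included P-selectin, CD11b, CD45.2, Fc-RI, I-A/I-E and Galectin-3.

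On the lower side CD4 had 5 counts in the Cd8 class and 86 in the Cd4 class, 18.6-fold lower (7.68 to 58.8). GITR had 7 and 50, 7.73-fold lower (3.49 to 20.2), and CD5 had 56 and 138, 2.67-fold lower (1.94 to 3.71). CD103, the integrin chain that binds E-cadherin on epithelium, had 0 counts in the Cd8 class and 13 in the Cd4 class (4.69-fold lower with the floor). Ly-6A/E (Sca-1), an activation marker of T cells, had 26 and 61, SLAM, a co-stimulatory adhesion receptor, had 29 and 58, and the complement regulator DAF had 11 and 26. TCR V-2.1 and CD61 were the others.

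None of the inhibitory receptors reached a call. Of the 8 measured inhibitory antibodies 0 were called between these classes. All 9 members of the group, Tim-3 below the minimum included, had 129 counts in the Cd8 class and 156 in the Cd4 class, a ratio of 0.764 (0.600 to 0.971). The median log2 ratio of the 8 was -0.49, beside -0.11 for all 76 measured antibodies. PD-1 had 22 and 19 counts (1.07-fold), TIGIT 24 and 27, CD152 16 and 24, and LAG-3, an MHC class II receptor, 15 and 7 (1.98-fold). CD45, CD90.2 and CD3 were also not called, with 122 and 75 counts for CD45, 112 and 77 for CD90.2, and 19 and 20 for CD3. By role, activation and regulatory antibodies had 1 of 17 higher and 4 lower (median log2 ratio -0.42), residency and homing antibodies 1 of 15 higher and 2 lower (0.11), and myeloid and dendritic antibodies 5 of 15 higher and 0 lower (0.58).

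Macrophage-marked cells made up 9.92% of the Cd8 class and 3.35% of the Cd4 class. Without them 13 of the 19 calls were kept, including all 9 that were lower, and on the higher side, among others, CD8a, Ly-6C (20 and 6, 3.30-fold) and TCR V-5.1, 5.2. The other 6, all higher in the Cd8 class, were not called there, and counts that were equal in both classes put CD11b, Fc-RI and Galectin-3 at a ratio of 0.99: CD45.2 had 8 and 3 counts, CD11b 3 and 3, Fc-RI 6 and 6, I-A/I-E 20 and 13, Galectin-3 10 and 10, and P-selectin 4 and 1. Another 5 antibodies passed the rule only there.

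For 62 measured antibodies whose target gene was in the gene table, the antibody ratio could be set beside the transcript ratio of the same classes. Both had the same direction for 50 of the 62, and for 14 of the 14 that were called. These numbers include macrophage-marked cells, without which CD11b, I-A/I-E and Galectin-3 were not called. The same numbers without those cells were not computed. Pearson's r of the log2 ratios was 0.77 and Spearman's rho 0.78 across antibodies, as a description, since all points come from the same cells and library and CD4, CD8a and the classes share their transcripts. Every other comparison had a lower r. It was 0.47, -0.11, 0.48 and 0.31 for numbers 1, 2, 3 and 4, and 0.25 and 0.21 for Cd8-identity and Cd4-identity Tdp cells. For macrophage-marked cells it was 0.63 and for cells with a Foxp3 UMI 0.66, comparisons described further below.

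**Figure D3:**
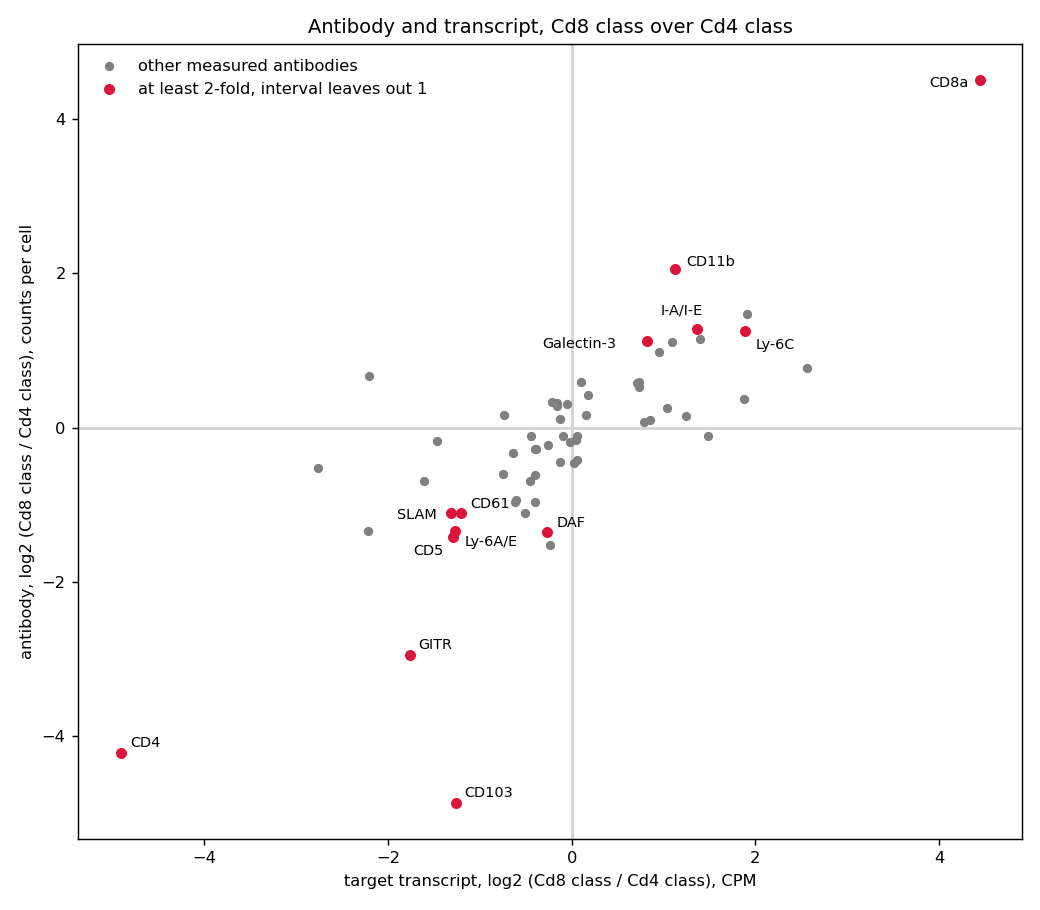
Each point is an antibody with a measured target gene: the log2 ratio of its target transcript (horizontal, from CPM) and of its antibody counts per cell (vertical), Cd8 class over Cd4 class; red points passed the 2-fold rule. CD8a lies at the upper right, CD4, GITR and CD103 at the lower left; CD103, with 0 counts in the Cd8 class, is drawn with 0.5 added to both of its counts.

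Double-positive Tdp cells were few, and so were their antibody counts. In Cd8-identity Tdp cells over the Cd8 class, 2 of 62 measured antibodies were higher (3.23%) and 1 was lower (1.61%). GITR had 4 counts in 313 Tdp cells and 7 in 2681 Cd8-class cells (4.89-fold, 1.05 to 19.3). TIGIT, an inhibitory receptor of T and NK cells, had 8 and 24 (2.86-fold, 1.11 to 6.57). CD301b had 0 and 39 (1.52-fold lower with the floor of 3 counts in place of the 0). GITR and TIGIT kept their calls without macrophage-marked cells, at 4.69-fold and 3.59-fold, and CD301b then had fewer than 10 counts.

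The co-receptor antibodies of these cells are the direct surface reading of the class. CD8a had 12 counts in Cd8-identity Tdp cells and 74 in the Cd8 class, a ratio of 1.39 that was not called. CD4 had 4 counts in the 313 Tdp cells and 5 in the 2681 Cd8-class cells, or 12.8 and 1.86 per 1000 cells. These are 9 counts in all, 1 under the minimum for a comparison, so CD4 could not be called. Not 1 cell of any class had counts of both antibodies. At 18.0 CD4 counts and 16.0 CD8a counts per 1000 of all cells, the depth cannot show whether single cells carried both proteins. CD45.1 had 4 counts in Cd8-identity Tdp cells and 38 in the Cd8 class, and CD45.2 had 4 and 23, with neither called.

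In Cd4-identity Tdp cells over the Cd4 class, 1 of 50 measured antibodies was higher (2.0%) and none was lower (0.0%). CD4 had 5 counts in 93 Tdp cells and 86 in 2477 Cd4-class cells (1.55-fold, 0.490 to 3.76), CD45.1 had 1 and 65, and CD8a had 0 and 3. The 9 inhibitory antibodies together gave 1 count in these Tdp cells and 156 in the Cd4 class (0.171, 0.00430 to 0.965), while in Cd8-identity Tdp cells they gave 17, against 129 in the Cd8 class (1.13, 0.638 to 1.88); whether these ratios differ was not tested. With 93 cells, a count of 0 still allows 32.3 counts per 1000 cells, above the level of most of the panel.

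Antibody and transcript could also be compared cell by cell. For 68 antibodies with a target gene in the gene table and at least 10 cells with a count, the share of cells with an antibody count was set for cells with a UMI of the gene over cells without. In 26 of the 68 the share was higher by the rule (38.2%), and in none was it lower (0.0%). The median ratio was 2.01, where all other antibodies of the panel gave a median of 1.27 for the same cells. The ratio was above that of the rest of the panel for 53 of the 68. The rest of the panel was taken as the background of the same cells.

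The CD8a antibody followed its transcript. A CD8a count was present in 81 of 2455 cells with a Cd8a UMI and 6 of 3109 without (17.1, 7.52 to 48.0). Within Cd8 identity CD8a was present in 79 of 2267 cells with the transcript and 5 of 727 without (5.07). Of the 2994 cells of this identity 285 were macrophage-marked, and their part in this ratio was not tested. CD4 behaved otherwise. Its antibody was present in 60 of 2047 cells with a Cd4 UMI and 37 of 3517 without (2.79), but within Cd4 identity in 56 of 1663 and 32 of 907, a ratio of 0.954 (0.608 to 1.52). Cd4-identity cells without a Cd4 UMI therefore had CD4 antibody counts about as often as those with one.

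Myeloid antibodies were among those with the highest ratios. CD14, the lipopolysaccharide co-receptor of monocytes, was present in 6 of 111 cells with Cd14 and 5 of 5453 without (59.0). CD301b was present in 16 of 89 and 21 of 5475 (46.9), CD11b in 14 of 260 and 8 of 5304 (35.7), and CD16/32 in 35 of 244 and 27 of 5320 (28.3). Among T cell antibodies, CD27 had a ratio of 3.51, GITR 2.91, CD49d 2.45 and CD44 2.39. Several antibodies with many counts had no call, among them CD45 (1.40), CD49f (1.03), CD61 (0.88), CD69 (0.86) and CD3 (0.75). Without macrophage-marked cells 17 of 54 pairs were higher, within Cd8 identity 17 of 52 (and 1 lower, the chemokine receptor CXCR3, with 5 of 2095 cells against 9 of 899) and within Cd4 identity 15 of 47. Set against the rest of the panel, the whole interval lay above its ratio for 25 of the 68 pairs over all cells. That number was 17 of 54 without macrophage-marked cells, 15 of 52 within Cd8 identity and only 4 of 47 within Cd4 identity.

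**Figure D4:**
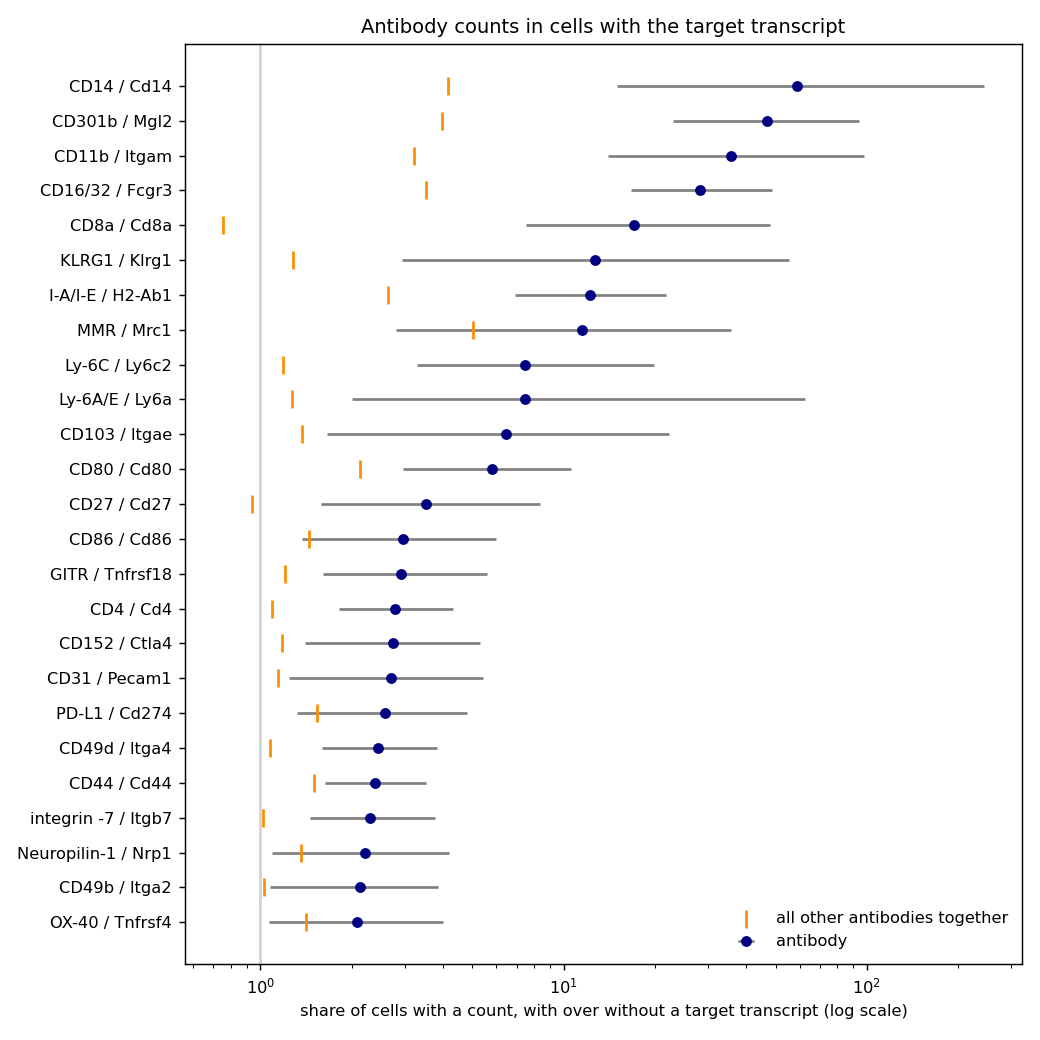
For antibodies that passed the rule, the share of cells with a count of the antibody in cells with a UMI of its target gene over cells without (blue, with exact 95% interval, log scale), and the same ratio for all other antibodies together (orange bars). CD14, CD301b, CD11b and CD16/32 lie above 20, while the orange bars lie between 0.75 and 5.04.

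The macrophage-marked cells differed from the other cells across much of the panel, a comparison added after the data had been seen. They numbered 372, of which 19 were Cd8-identity Tdp, 266 Cd8 class, 4 Cd4-identity Tdp and 83 Cd4 class. They held 2242 antibody counts per 1000 cells, against 670 in the other cells, 3.34-fold (3.1 to 3.61), with a median of 8298 RNA UMIs per cell against 3756. Of 82 measured antibodies 42 were higher (51.2%) and 1 was lower (1.22%). Since the whole panel was higher, the size of a ratio is to be read beside 3.34.

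The highest ratios belonged to proteins of macrophages, monocytes and dendritic cells. CD301b, a lectin of macrophages and dendritic cells, had 47 counts in macrophage-marked cells and 17 in the other cells (38.6-fold). The integrin CD11b had 17 and 7 (33.9-fold), CD14 had 8 and 4 (27.9-fold), CD16/32 had 41 and 25 (22.9-fold), and I-A/I-E had 26 and 37 (9.81-fold). CD45.2 stood among them with 20 and 14 counts (19.9-fold), while CD45.1 had 9 and 99 (1.27-fold) and was not called. Of the antibodies to myeloid and dendritic proteins, 14 of the 17 measured were higher and 0 lower, with a median log2 ratio of 3.24 beside 1.90 for all 82 measured antibodies. All 37 members of the group had 292 and 405 counts, 10.1-fold (8.63 to 11.7).

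T cell antibodies lay at the other end in the same cells, where 0 of 5 measured were higher and 1 was lower, and their 6 members together had 23 and 482 counts (0.666, 0.418 to 1.01). That one was CD90.2, with 5 counts in macrophage-marked cells and 204 in the other cells (2.92-fold lower, 1.23 to 9.10). CD4 had 8 and 92 (1.21-fold), all 8 of them in number 1, so that without number 1 none was left in macrophage-marked cells. CD8a had 5 and 84 (0.83-fold), CD5 had 11 and 191, and TCR - chain had 0 and 16. These were near or below 1 where the panel as a whole stood at 3.34. T cell list transcripts were at 2261 CPM (UMIs scaled to the same total) in macrophage-marked cells and 6156 in the others. Isotype controls stood at 5.38 and 0.963 counts per 1000 cells, 2 counts and 5. Some antibodies to proteins of activated T cells were also higher, namely CD152 (5.58-fold), TIGIT (4.76-fold), CD44 (3.99-fold), LAG-3 (3.88-fold) and PD-1 (3.28-fold). Of the 35 called antibodies with a measured target gene, 21 had a transcript that differed in the same direction. Among all 66 measured antibodies with a target gene, 32 did.

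**Figure D5:**
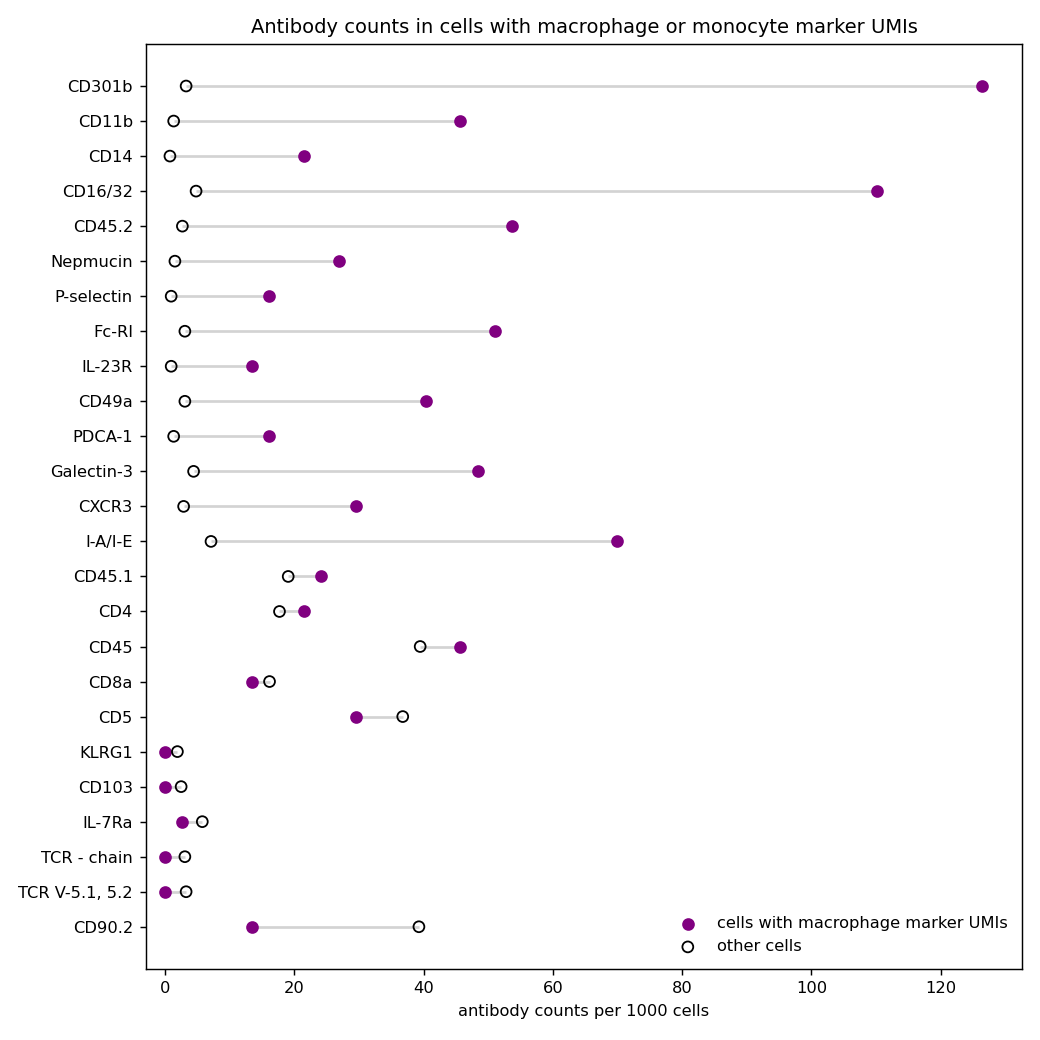
Antibody counts per 1000 cells in the 372 cells with at least 2 UMIs of the macrophage or monocyte list (filled) and in all other cells (open), for the antibodies with the highest and lowest ratios and the lineage antibodies. CD301b and CD16/32 are far apart, CD45.2 lies with the myeloid antibodies, and CD90.2 is lower in the marked cells.

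Regulatory T cells, which hold back immune responses and are defined by the transcription factor Foxp3, were followed through the Foxp3 transcript, also as a comparison added after the data had been seen. In the Cd4 class 555 cells had a Foxp3 UMI and 1922 had none. A missing UMI does not show that the transcript was absent. Of the cells without a Foxp3 UMI, 367 (19.1%) had at least 2 UMIs of a regulatory T cell list (Foxp3, Il2ra, Ctla4, Ikzf2). Of 49 measured antibodies 8 were higher in the cells with Foxp3 (16.3%) and 1 was lower (2.04%). GITR had 26 counts with Foxp3 and 24 without (3.75-fold, 2.07 to 6.83), and CD103 had 7 and 6 (4.04-fold). CD80 had 17 and 16 (3.68-fold), PD-L1 14 and 18 (2.69-fold), the adhesion ligand CD54 12 and 16 (2.60-fold), CD301b 14 and 11 (4.41-fold), integrin beta 7 28 and 43 (2.26-fold) and CD49f 27 and 44 (2.13-fold). CD49d was lower, with 3 and 35 counts (3.37-fold lower, 1.06 to 17.1). Inhibitory antibodies had 0 of 6 measured called, and all 9 members summed to 53 counts with Foxp3 and 103 without (1.78, 1.25 to 2.51). The panel as a whole was 1.37-fold higher in these cells, at 1014 against 741 counts per 1000 cells, with 3345 and 3501 median RNA UMIs. All 9 called antibodies had a transcript that differed the same way, as did 34 of all 46 measured antibodies with a target gene. Without macrophage-marked cells, which were 4.68% of the cells with Foxp3 and 2.97% of those without, 6 of the 9 calls were kept, among them GITR and CD103, while CD301b (4 and 5 counts), integrin beta 7 (1.98-fold, 1.13 to 3.37) and CD49d (a ratio of 0.353, 0.069 to 1.13) were not called. At least 2 UMIs of a dendritic cell list (Itgax, Flt3, Xcr1, Clec9a, Siglech, H2-Aa, H2-Ab1, H2-Eb1) were present in 9.19% of the cells with Foxp3 and 3.95% of those without, with 1615 and 575 CPM of the list, and their part in these ratios was not tested.

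Antibodies to T cell receptor chains could be set beside V gene transcripts, in pairs that were chosen after their values had been seen. The names lack their Greek letters; TCR V-2.1 was paired with the Trav14 genes, which encode the V alpha 2 chains of the mouse, TCR V-5.1, 5.2 with Trbv12-1 and Trbv12-2 (V beta 5), and TCR V-8.1, 8.2 with Trbv13-2 and Trbv13-3 (V beta 8). TCR V-2.1 was present in 39 of 469 cells with a Trav14 UMI and 30 of 5095 without, a ratio of 14.1 (8.55 to 23.5). It held in both identities, at 18.8 in Cd8-identity and 10.4 in Cd4-identity cells. TCR V-5.1, 5.2 was present in 15 of 1425 cells with a Trbv12 UMI and 2 of 4139 without (21.8, 5.07 to 196). All 17 cells with this antibody had a Cd8 identity, and 0 of the 261 Cd4-identity cells with the transcript had a count. A Trbv12 UMI was present in 38.9% of the cells with a Cd8 identity and in 10.2% of those with a Cd4 identity, the same direction as the antibody. TCR V-8.1, 8.2 was present in 7 of 1112 cells with the transcript and 15 of 4452 without, and its ratio of 1.87 (0.644 to 4.87) was not called.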

How the data were processed

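The authors deposited raw counts of antibody labels and of gene UMIs per cell in 2 tables with the same 5564 cells, and an annotation of hashtag number, identity and class. The submitters' processing notes name the mm10 build, Seurat 3.2.3 and Cell Ranger 3.1.0 without saying what each was used for. The sources used here do not say how antibody reads were counted, cells filtered, doublets handled or identities called. The hashtag and T cell receptor libraries were not analysed here. Antibody counts were summed over cells by hashtag number, identity and class, with no normalization other than the number of cells; transcript levels are CPM, UMIs of a gene scaled to the UMIs of the group. Exact intervals came from scipy 1.17.1 (python 3.11.15, numpy 2.4.6, pandas 2.3.3; figures with matplotlib 3.10.9), and the ratio step was tested on simulated data. The simulation drew Poisson counts at the sizes of the Cd8 and Cd4 classes. It does not cover smaller groups such as Tdp cells, or counts that gather in the same cells. Fold changes against 0 counts used a floor of 3 counts over the group. They leave out the counting error of the other group and are not lower limits. Target genes of 111 antibodies were taken from textbook names, and 102 were in the gene table. Antibodies named are the lineage antibodies, the isotype controls, the 15 with the most counts, the 5 highest and 5 lowest ratios of each comparison and antibodies to listed cell type proteins; some others are named because they passed the rule of size. Members, lists and comparisons were chosen with earlier results of these data known. Alternatives changed the scaling, the count minimum, the fold, and the cells included. The values of some antibodies are not reported here and those antibodies are not plotted, although counts of antibodies called include them.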

Additional observations from a re-analysis of the deposited data

How the results depend on the processing

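No paired analysis was possible because all cells come from 1 library and no sample is repeated. Without macrophage-marked cells and, for the hashtag numbers, within an identity, no called antibody took the opposite direction with an interval that left out 1; the ratios of 3 antibodies called higher in the Cd8 class passed to 0.99 without macrophage-marked cells (CD11b, Fc-RI, Galectin-3), and Fc-RI, higher in number 4, had 0 of its 8 counts there within Cd4 identity. Counts below are numbers of antibodies called, higher and lower together; the cause of a change was not tested except that leaving out cells leaves fewer counts. For number 1 the 9 calls became 5 as a share of the panel, 5 without cells of other types, 17 at 1.5-fold and 2 within Cd4 identity. Its log2 ratios were 0.05 for CD45.2 (-2.31 without cells of other types, -2.34 without macrophage-marked cells), -2.03 for CD8a (-0.94 within Cd8 identity) and 0.79 for CD4 (-0.073 within Cd4 identity). For number 2 the 3 calls became 1 as a share of the panel, per RNA UMI, counting cells, and without cells of 5 or more counts, of other types or macrophage-marked. For number 3 the 11 became 4, 7 and 5 without these 3 kinds of cells and 1 within Cd4 identity; its log2 ratio was 0.94 for CD8a (0.15 within Cd8 identity) and -0.88 for CD4 (0.46 within Cd4 identity). For number 4 the 3 became 1, 0 and 1 without these kinds, 5 within Cd8 identity and 0 within Cd4 identity. Between Cd8 and Cd4 classes the 19 became 5, 10, 2 and 8 within numbers 1, 2, 3 and 4, and 14 to 18 when a number was left out. For Cd8-identity Tdp the 3 became 1 counting cells, 0, 1, 1 and 0 within numbers, and 2 to 3 leaving 1 out. For Cd4-identity Tdp the 1 became 0 counting cells, per RNA UMI, at 20 counts, and within numbers 1, 2 and 4, and 2 without cells of other types or with no minimum; it was 0 to 1 leaving a number out, 0 without number 2, and number 3 held too few cells. For macrophage-marked cells the 43 became 25 as a share of the panel, 22 without cells of 5 or more counts, 22, 12, 3 and 11 within numbers, and 28 (without number 1) to 40. With Foxp3 the 9 became 5 without cells of 5 or more counts, 3, 0, 0 and 3 within numbers, and 6 to 11 leaving 1 out. Of transcript pairs the 26 became 17 without macrophage-marked cells, 17 within Cd8 identity and 15 within Cd4 identity. The share of isotype counts, the number of antibodies over isotype and the share of cells with a count did not move. In all, 227 of the values behind the comparisons were counted as unchanged and 58 as moved. Of the other values that were followed, 186 were counted as unchanged and 17 as moved. Being counted as unchanged did not require a ratio without a call to keep its direction. For CD45.1 in Cd8-identity Tdp cells over the Cd8 class, the log2 ratio ran from -0.70 to 0.41 when a number was left out. Limits are the depth, the single library without replicates and the share of counts in macrophage-marked cells.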

Other observations

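Antibody counts per cell were higher in cells with more RNA UMIs. With cells ranked by RNA UMIs and cut into 5 groups of equal size, the lowest group (501 to 2710 UMIs) held 531 antibody counts per 1000 cells, the next held 571, 614 and 759, and the highest (6338 to 23946 UMIs) held 1402. Without macrophage-marked cells the same groups held 523, 570, 620, 706 and 1006. Scaled to RNA UMIs the order was the opposite, with 264, 183, 158, 146 and 142 antibody counts per 1e+06 RNA UMIs of all cells.

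Some proteins are represented by more than 1 row with unequal counts. ICOS had 96 counts and a second row with the same name, ICOS.1, had 4. CD90.2 had 209 counts and CD90 had 6. The interleukin-2 receptor alpha chain had 14 counts under IL-2Ra and 5 under CD25. Whether these rows are different antibody clones was not stated in the sources used here.

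The spread of antibody counts over cells was wider than that of random counts, with a variance of 1.81 times the mean over all cells and 1.22 times without macrophage-marked cells.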
